A study of Mus musculus with 2 samples.

Results

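Beta cells that carried transcripts of Pdyn were 493 of the 11048 barcodes in droplet single-cell RNA profiles of mouse pancreatic islets. A barcode was a member when it had at least 500 detected genes, at most 10% of its unique molecular identifiers (UMIs) from mitochondrial genes, at least 20% from Ins1 and Ins2 together, and at least 3 UMIs of Pdyn. The high-fat diet (HFD) library held 110 members among 3100 beta cells and 4539 barcodes, and the chow library held 383 among 4574 beta cells and 6509 barcodes. Pdyn and the insulin genes chose the cells, so their own levels are given as a description.

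The islets came from C57BL/6J wild-type mice kept for 6 weeks after weaning on a 60% HFD (5 mice) or on regular chow (4 mice), and each diet gave 1 library. Islets were picked by hand, held in culture overnight and dispersed with trypsin before capture, a handling that every cell here shares. No source used here ties a barcode to a mouse, so how many mice gave the members is unknown, and nothing here has a replicate check. All intervals are 95% intervals that cover counting error only, and no test was made between libraries or between sets of cells.

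Pdyn encodes prodynorphin, the precursor that the prohormone convertases cut into the dynorphins and neo-endorphins, opioid peptides that act mainly on the kappa opioid receptor, which Oprk1 encodes. In beta cells the same convertases, Pcsk1 and Pcsk2, cut proinsulin inside the secretory granule, and Cpe trims the products. A cell that makes much secretory protein relies on the chaperones and translocation proteins of the endoplasmic reticulum. The unfolded protein response adjusts these to the load. The integrated stress response acts through the transcription factor Atf4 on amino acid supply and on stress genes such as Ddit3 and Trib3.

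The promoter of Pdyn is shown because its transcript defines the cells, and those of 4 genes that stood higher in them because each holds a motif a reader may look for. The windows are the 250 bases before each RefSeq start on GRCm38.p6, written 5′ to 3′ on the gene's strand. Capitals mark the cAMP response element TGACGTCA in Pcsk1 and Chgb and the C/EBP-ATF response element TGATGNAAN, in either orientation, in Slc7a11 and Nupr1. The Pdyn windows lie at chr2:129699939-129700188 and chr2:129698659-129698908, both on the minus strand. The stretches of 80 or 81 bases lie at chr13:75089743-75089822 (plus, Pcsk1), chr2:132781534-132781613 (plus, Chgb), chr3:50443635-50443715 (minus, Slc7a11) and chr7:126625537-126625617 (minus, Nupr1).
Pdyn start 1: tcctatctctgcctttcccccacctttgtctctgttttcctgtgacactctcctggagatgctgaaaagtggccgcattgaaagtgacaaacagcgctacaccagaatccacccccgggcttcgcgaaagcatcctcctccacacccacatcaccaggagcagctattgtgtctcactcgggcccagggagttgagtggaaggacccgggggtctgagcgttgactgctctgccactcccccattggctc
Pdyn start 2: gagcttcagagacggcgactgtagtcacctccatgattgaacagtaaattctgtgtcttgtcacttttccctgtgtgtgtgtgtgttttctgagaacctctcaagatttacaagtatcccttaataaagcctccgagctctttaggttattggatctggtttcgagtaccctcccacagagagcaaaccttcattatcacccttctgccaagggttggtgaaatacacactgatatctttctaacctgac
Pcsk1: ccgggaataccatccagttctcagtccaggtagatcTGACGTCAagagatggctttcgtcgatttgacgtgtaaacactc
Chgb: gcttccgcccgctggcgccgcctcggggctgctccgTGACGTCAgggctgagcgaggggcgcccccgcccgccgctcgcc
Slc7a11: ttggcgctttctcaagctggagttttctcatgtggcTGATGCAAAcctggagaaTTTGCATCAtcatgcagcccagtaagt
Nupr1: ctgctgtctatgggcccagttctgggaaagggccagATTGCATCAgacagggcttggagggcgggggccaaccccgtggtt
Neither motif occurs in either Pdyn window, which says only that these letters are not there.

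Both motifs were searched on both strands of all 32851 windows in the table, and the search was chosen after the expression values had been seen. The cAMP response element lies in 1.55% of all windows and in 1 of the 11 windows of the prohormone processing genes, that of Pcsk1. It lies in 2 of the 17 windows of the granin and granule genes, those of Chgb and Scg2, in 1 of the 25 windows of the calcium and cAMP response genes, that of Dusp1, and in 2 of the 28 windows of the minor peptide genes, those of Cartpt and Sst. The C/EBP-ATF element lies in 3.44% of all windows and in 6 of the 23 windows of 20 integrated stress response genes, those of Asns, Atf3, Chac1, Nupr1, Slc7a11 and Vldlr. In the unfolded protein response list it lies in 2 of 46 windows (4.35%), those of Herpud1 and Txndc5. The integrated stress response list holds known Atf4 targets, so the count describes the list and shows no binding in these cells. Of all windows, 8 hold both motifs.

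Pdyn was carried by a minority of beta cells in each library, and a small tail of cells held most of it. The share of beta cells with at least 3 Pdyn UMIs was 3.55% in the HFD library (exact interval 2.93% to 4.26%) and 8.37% in the chow library (7.59% to 9.21%). The HFD share was 0.424 times the chow share (0.340 to 0.525), and the intervals of the shares did not overlap. Beta cells of the HFD library were the deeper ones, with a median of 16947 UMIs, against 14810 in the chow library. With every cell thinned to 8000 UMIs and shallower cells left out (532 in the HFD library and 670 in the chow library), the shares were 1.67% and 4.07%. Over all beta cells, Pdyn stood at 22.4 counts per 1000000 UMIs (CPM) in the HFD library (21.2 to 23.7) and at 49.9 CPM in the chow library (48.3 to 51.6).

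Among members, whose Pdyn counts the rule bounds from below at 3, the median was 5 Pdyn UMIs in each library, and the richest cell held 51 in the HFD library and 60 in the chow library. Members held 67.6% of the Pdyn UMIs of HFD beta cells and 79.7% of those of chow beta cells. The variance of Pdyn over its mean across beta cells was 9.80 in the HFD library and 9.55 in the chow library, where a count drawn at random from 1 common level would give about 1. Just inside the threshold, 32 HFD and 101 chow beta cells had exactly 3 Pdyn UMIs. Just outside it, 64 HFD and 161 chow beta cells had 2. Many cells thus lay near the limit, and the members are a range of Pdyn counts set by it, with no claim that they are a cell type. Few cells lay near the limit on insulin share. Just inside it, at 20% to 25%, were 2 HFD members and 0 chow members, and just outside it, at 15% to 20%, 0 HFD cells and 1 chow cell had at least 3 Pdyn UMIs.

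**Figure D1:**
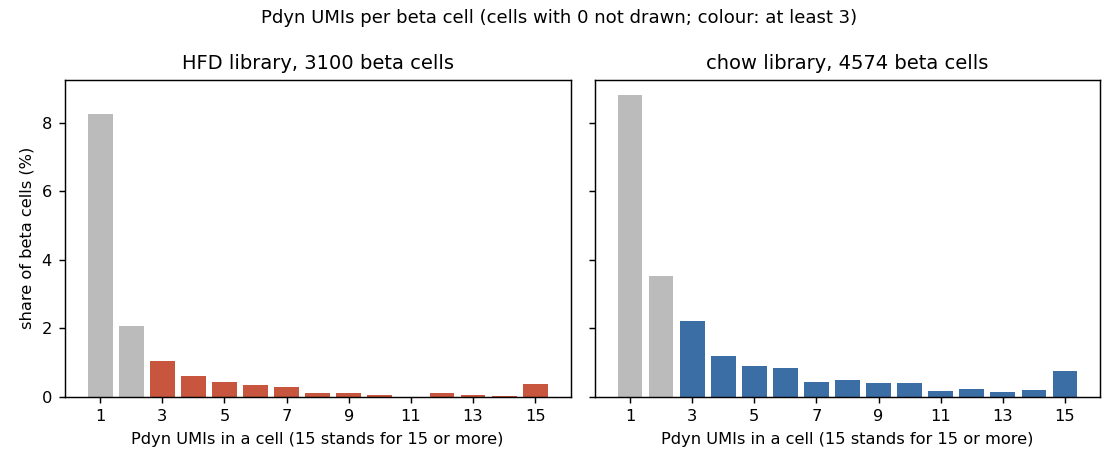
Share of beta cells (%, vertical axis) by the number of Pdyn UMIs in the cell (horizontal axis), HFD library left and chow library right; coloured bars are members, grey bars are cells with 1 or 2 UMIs, and cells with 0 are not drawn. In each library the share is highest at 1 UMI and thins out into a long tail; the last bar gathers all cells with 15 or more.

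Pdyn UMIs were found in the largest share of beta cells and, after them, of Sst-led cells. With every cell thinned to 4000 UMIs, at least 1 Pdyn UMI was found in 5.94% of beta cells of the HFD library and in 9.49% of those of the chow library. Cells led by Sst, the delta-cell hormone, had it in 3.30% (7 of 212) in the HFD library and in 6.56% (21 of 320) in the chow library. These delta-led intervals, 1.34% to 6.68% and 4.11% to 9.86%, overlapped those of beta cells in the same library. Cells led by Gcg, the alpha-cell hormone, had it in 0.26% in the HFD library and 0.54% in the chow library. Before thinning, Gcg-led cells had median depths of 10888 and 8501 UMIs. Cells led by Ppy, the pancreatic polypeptide, had it in 0 of 314 in the HFD library, which allows up to 1.17%, and in 2.03% (7 of 344) in the chow library. Hormone-poor cells, in which none of these hormones reached 5% of UMIs, had it in 0 of 383 in the HFD library, which allows up to 0.959%, and in 2.65% (10 of 378, 1.28% to 4.81%) in the chow library. Free RNA gives such shares in cells that do not express a gene, so the background lies somewhere up to the level of these classes, which in the chow library differed among themselves. The interval of chow Sst-led cells overlapped that of chow hormone-poor cells and lay above that of chow Gcg-led cells (0.15% to 1.38%). Whether Sst-led cells stood above background was not tested. Unthinned, 13.9% of HFD and 20.7% of chow beta cells had at least 1 Pdyn UMI, against 1.70% and 4.08% of all other cells, which were shallower at medians of 9985 and 8442 UMIs.

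**Figure D2:**
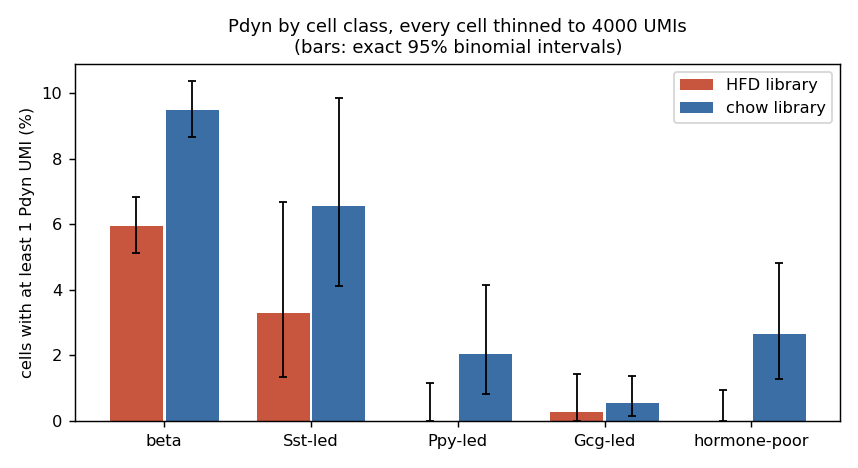
Share of cells with at least 1 Pdyn UMI (%) by cell class after thinning to 4000 UMIs, HFD bars left of chow bars, with exact 95% binomial intervals. Beta cells and Sst-led cells stand above Gcg-led cells in both libraries, and the HFD bar is lower than the chow bar in each of the 5 classes.

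For the expression comparison each member was paired with 1 beta cell of the same library that had 0 Pdyn UMIs and a total within 10% of its own, which gave 110 HFD pairs and 382 chow pairs. The pairs had median totals of 20632 UMIs (members) and 20627 UMIs (Pdyn-0 cells) in the HFD library, and of 21325 and 21326 UMIs in the chow library. At the same depth, HFD members had a median of 3136 detected genes and Pdyn-0 cells 2925. Chow members had 2969 and Pdyn-0 cells 2835. Members gave a smaller part of their RNA to insulin, with a median of 50.1% against 55.8% in HFD cells and of 52.1% against 54.9% in chow cells. They also had a lower mitochondrial share, 2.65% against 3.34% in HFD cells and 2.07% against 2.72% in chow cells. Their part in the gene differences was not tested. The 2 libraries shared 45 barcode sequences, and none of them belonged to a member. Summed counts were set as log2 ratios of members over Pdyn-0 cells, and each ratio is given relative to the median of all measured genes, which was 0.18 in the HFD library and 0.05 in the chow library.

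Of the marker genes proposed for these cells, Cox6a2 was higher in members of both libraries, Fkbp11 was higher beyond counting error in the chow library, and Crybb3 was higher in the HFD library, where few cells held most of its counts. Cox6a2, the heart and muscle form of a cytochrome c oxidase subunit, stood at 46.3 CPM in HFD members and 18 CPM in HFD Pdyn-0 cells, and at 109 CPM in chow members and 38.7 CPM in chow Pdyn-0 cells. Its relative log2 ratio was 1.18 in the HFD library (0.65 to 1.75) and 1.44 in the chow library (1.26 to 1.63). Cells with at least 1 Cox6a2 UMI were 26.4% of HFD members and 13.6% of HFD Pdyn-0 cells, and 51.3% of chow members and 31.7% of chow Pdyn-0 cells, so many members lacked it. In the HFD library 5 cells held 48.5% of its member counts. Fkbp11, a secretory-pathway peptidyl-prolyl isomerase, had relative log2 ratios of 0.66 in the HFD library (-0.04 to 1.43) and 0.68 in the chow library (0.50 to 0.85), and the HFD interval reached below 0. Crybb3, a lens crystallin, stood at 138 CPM in HFD members and 39.1 CPM in HFD Pdyn-0 cells, but 5 cells held 64.7% of the member counts. In chow cells it stood at 290 CPM in members and 293 CPM in Pdyn-0 cells, a relative log2 ratio of -0.06 (-0.15 to 0.02). Without matching on depth the Crybb3 ratio was 0.61 in the HFD library and 0.59 in the chow library. Of the 6 measured beta-cell markers that the rule did not use, 4 had negative relative log2 ratios in each library. The medians of these markers were -0.16 in the HFD library and -0.18 in the chow library. Slc2a2, the lowest of them, had -0.73 and -0.71. Iapp, the amyloid peptide stored with insulin, stood at 63903 CPM in HFD members and 62917 CPM in HFD Pdyn-0 cells, and at 84418 CPM in chow members and 76216 CPM in chow Pdyn-0 cells. Its relative log2 ratios were -0.16 in the HFD library and 0.10 in the chow library. G6pc2, the islet glucose-6-phosphatase, stood at 454 CPM in HFD members and 363 CPM in HFD Pdyn-0 cells, and at 431 CPM in chow members and 372 CPM in chow Pdyn-0 cells. Its ratios were 0.14 and 0.17. Mafa, also listed as a beta-cell marker, had 0 counts in chow members and in Pdyn-0 cells of both libraries. At 3 counts over the group, this allows up to 0.362 CPM in chow members. In Pdyn-0 cells it allows up to 0.363 CPM (chow) and 1.35 CPM (HFD). The gene models behind the counts are not known here, so these zeros are not read as absence of Mafa.

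Few genes stood apart from matched beta cells by at least 2-fold. Here and below, the 2-fold limit is applied to CPM ratios before the all-gene median is taken off. A gene can therefore pass 1 or -1 on the relative log2 scale without being counted, or be counted without passing it. In the HFD library 117 of 5441 genes did so (2.15%), 107 of them higher (1.97%) and 10 lower (0.184%). In the chow library 126 of 8876 genes did so (1.42%), 78 higher (0.879%) and 48 lower (0.541%). The HFD split depended on the scaling: per 1000000 UMIs without Ins1, Ins2 and Iapp it was 57 higher and 21 lower, and with TMM factors it was 54 higher and 23 lower. Both splits depended on the matching. Matched on UMIs without Ins1, Ins2 and Iapp, the chow split was 56 higher and 93 lower, and the HFD split 70 and 22. Without matching on depth, it was 134 higher and 314 lower in the chow library, and 279 and 304 in the HFD library. Among genes with a summed count of at least 50 in both libraries, 20 were at least 2-fold higher in chow members, and 15 of these (75% of the chow genes, 14.2% of the 106 HFD genes) were so in HFD members too. All 20 lay above the all-gene median of the HFD library. Of 14 such genes at least 2-fold lower in chow members, 3 were also so in HFD members (21.4% of the chow genes, 33.3% of the 9 HFD genes), namely Cib3, Cd79a and Tmsb15b2, and all 14 lay below the HFD median. Across these 5439 genes with at least 50 counts the ratios had a Pearson r of 0.43. Across the 1465 genes with at least 200 counts in both libraries it was 0.69. At that minimum, 4 of the 5 genes at least 2-fold higher in chow members were so in HFD members, and 0 of the 2 lower ones. Each r is a description across genes, which are not independent replicates.

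By the naming rule, which leaves out genes held mostly by a few cells, the genes highest in chow members were led by Ttyh1, Mt3, Pappa2 and Vgf. Ttyh1, a member of the tweety family of membrane proteins, stood at 44.3 CPM in chow members and 10.4 CPM in chow Pdyn-0 cells, a relative log2 ratio of 2.04 (1.70 to 2.40). In the HFD library it had only 44 counts in members and 5 in Pdyn-0 cells, under the minimum sum of 50 for a measured gene. Vgf, a granin-like prohormone whose peptides are stored in secretory granules, had 18.9 CPM in HFD members and 4.50 CPM in HFD Pdyn-0 cells, and 29.8 CPM in chow members and 7.74 CPM in chow Pdyn-0 cells. Its relative log2 ratios, 1.84 (0.87 to 3.05) in the HFD library and 1.89 (1.49 to 2.32) in the chow library, were nearly equal. Vgf was detected in 25.5% of HFD members and 9.09% of HFD Pdyn-0 cells, and in 36.6% of chow members and 13.1% of chow Pdyn-0 cells. Mt3, the metallothionein best known from brain, had relative log2 ratios of 1.53 in the HFD library and 2.03 in the chow library. Its abundant relatives Mt1 and Mt2 lay near the median, at -0.14 and -0.11 in the HFD library and at -0.09 and -0.19 in the chow library. Pappa2, a protease that cleaves insulin-like growth factor binding proteins, had ratios of 2.14 (1.16 to 3.42) in the HFD library and 2.03 (1.57 to 2.54) in the chow library, and Igf1r, the receptor of those growth factors, had 0.59 and 1.11.

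The other genes highest in chow members had varied known roles. Odc1, the first enzyme of polyamine synthesis, stood at 91.8 CPM in HFD members and 33.3 CPM in HFD Pdyn-0 cells, and at 96.9 CPM in chow members and 45.0 CPM in chow Pdyn-0 cells. Its relative log2 ratios were 1.28 (0.89 to 1.69) in the HFD library and 1.06 (0.88 to 1.24) in the chow library. Phgdh and Psat1, which catalyse consecutive steps of serine synthesis, had chow ratios of 0.99 (0.69 to 1.29) and 1.05 (0.69 to 1.43). In HFD cells Phgdh had 27 counts in members and 5 in Pdyn-0 cells, and Psat1 had 29 and 12. Hmox1, heme oxygenase, had 1.43 in the HFD library and 0.98 in the chow library. Fam46a, a member of a family of noncanonical poly(A) polymerases, had 1.53 and 1.02. Fh1, fumarate hydratase, had 0.81 and 0.97, Wipi1, an autophagy protein, had 0.84 and 0.99, and Dapl1 had 1.31 and 0.95. Syt5, a synaptotagmin of secretory vesicles, had 0.97 and 1.17. Each of these genes stood higher in members of both libraries.

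The lowest genes of chow members were led by Cib3, a calcium- and integrin-binding protein. Cib3 stood at 13 CPM in HFD members and 37.3 CPM in HFD Pdyn-0 cells, and at 7 CPM in chow members and 32.1 CPM in chow Pdyn-0 cells. Its relative log2 ratios were -1.68 (-2.36 to -1.07) in the HFD library and -2.23 (-2.68 to -1.83) in the chow library. It was detected in 19.1% of HFD members and 43.6% of HFD Pdyn-0 cells, and in 12.0% of chow members and 40.8% of chow Pdyn-0 cells. Gatm, which makes the precursor of creatine, had ratios of -1.03 in the HFD library and -1.40 in the chow library. Tmsb15b2, a thymosin, had -2.07 and -1.31, Mapk15 had -1.04 and -1.06, and Igfbp7 had -0.72 and -0.95. Scgn, the calcium sensor secretagogin, had -0.37 and -0.90, and Fkbp1b, which binds ryanodine receptors, had -0.44 and -0.91. The intervals of Rab37 and Folr1 reached above 0 in the HFD library, so their lower level there was within counting error. Ppp1r1a, a phosphatase inhibitor abundant in beta cells, was among the 5 lowest HFD genes and had -0.97 in the HFD library and -0.84 in the chow library.

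**Figure D3:**
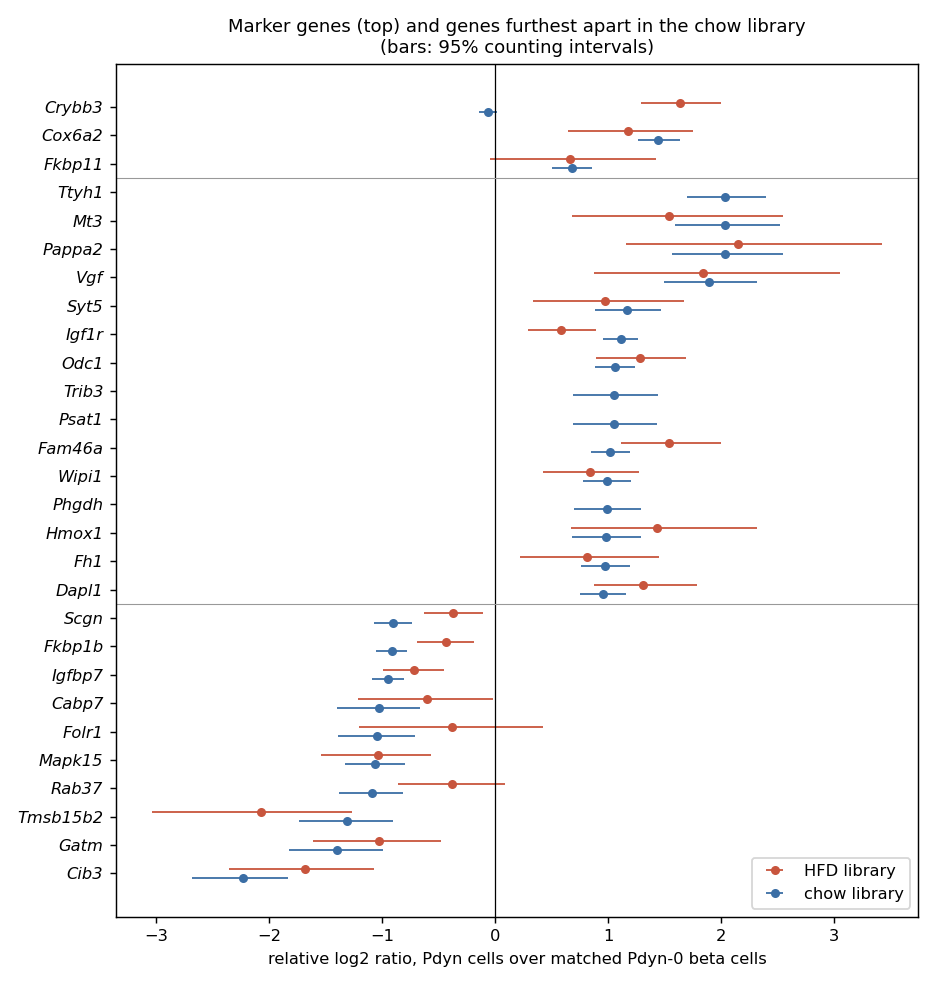
Relative log2 ratio of Pdyn cells over matched Pdyn-0 beta cells (horizontal axis) for 3 marker genes at the top, the 15 highest and the 10 lowest genes of the chow library, with HFD in red drawn above chow in blue and 95% counting intervals. Ttyh1, Trib3, Psat1 and Phgdh have no HFD point because their summed HFD count was under 50; every drawn HFD point of the 25 chosen genes lies on the same side of 0 as the chow point.

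No opioid receptor of the classical trio was counted in these cells. Oprk1, Oprm1 and Oprd1, the kappa, mu and delta opioid receptors, had 0 counts in members of both libraries. The sums held 2222395 UMIs over HFD members and 8286493 over paired chow members, so a count of 0 allows up to 1.35 CPM in HFD members and 0.362 CPM in chow members (3 counts over the group). Penk had 0 counts in members, and Pnoc had 0 in HFD members and 9 in chow members. Pomc, the precursor of beta-endorphin, was counted at 30.6 CPM in HFD members and 17.5 CPM in HFD Pdyn-0 cells, and at 32.3 CPM in chow members and 25.2 CPM in chow Pdyn-0 cells. Its relative log2 ratios were 0.62 (0.04 to 1.23) in the HFD library and 0.31 (0.05 to 0.58) in the chow library.

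The prohormone-processing genes did not move together. In HFD cells 4 of the 9 measured genes of this list lay above the all-gene median, and in chow cells 5 of 9 did, with list medians of -0.05 and 0.11. Pcsk1 stood at 73.3 CPM in HFD members and 40.5 CPM in HFD Pdyn-0 cells, with a ratio of 0.68 (0.30 to 1.07), and at 85.1 and 52.3 CPM in chow members and chow Pdyn-0 cells, with a ratio of 0.65 (0.48 to 0.83). Pam, which amidates peptide ends, had 0.77 (0.61 to 0.93) in the HFD library and 0.86 (0.77 to 0.96) in the chow library, and Cpe had 0.31 and 0.26. Pcsk2 lay at the median in both libraries, with -0.05 and 0.00. Pcsk1n, which encodes the Pcsk1 inhibitor proSAAS, was lower, with -0.39 in the HFD library and -0.33 in the chow library. Pcsk1 and its inhibitor therefore stood on opposite sides of the median in both libraries.

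The granule genes were likewise mixed. Of the granin and granule list, 12 of 19 measured genes lay above the median in HFD cells and 7 of 20 in chow cells. Chgb had 0.29 in the HFD library and 0.32 in the chow library, whereas Chga, another granin, had -0.35 and -0.49. Ptprn, a granule membrane protein known as an autoantigen of type 1 diabetes, had 0.65 and 0.76, and Syt4 had 0.47 and 0.76. Slc30a8, the zinc transporter that loads the insulin granule, stood at 165 CPM in HFD members and 247 CPM in HFD Pdyn-0 cells, and at 112 CPM in chow members and 202 CPM in chow Pdyn-0 cells. Its ratios were -0.76 (-0.95 to -0.57) and -0.90 (-1.02 to -0.79), and neither interval came near 0. Nucb2, the precursor of nesfatin, had 0.83 in the HFD library and 0.59 in the chow library.

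Among beta-cell identity genes, Slc2a2 and Ucn3 were lower while most transcription factors lay near the median. The list without Ins1, Ins2 and Pdyn had 7 of 22 measured genes above the median in HFD cells and 8 of 23 in chow cells, with medians of -0.09 and -0.11. Slc2a2, the glucose transporter, had -0.73 (-1.03 to -0.43) in the HFD library and -0.71 (-0.90 to -0.52) in the chow library. Ucn3, a peptide of mature beta cells, had -0.41 and -0.45. Pdx1 had -0.15 and -0.20, and Nkx6-1 had 0.07 and -0.16. Mlxipl, the carbohydrate-response factor ChREBP, had -0.34 in the HFD library and -0.85 in the chow library, and its target Txnip had -0.26 and -0.12. Ins2 itself, part of the rule, had -0.39 in the HFD library and -0.11 in the chow library.

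**Figure D4:**
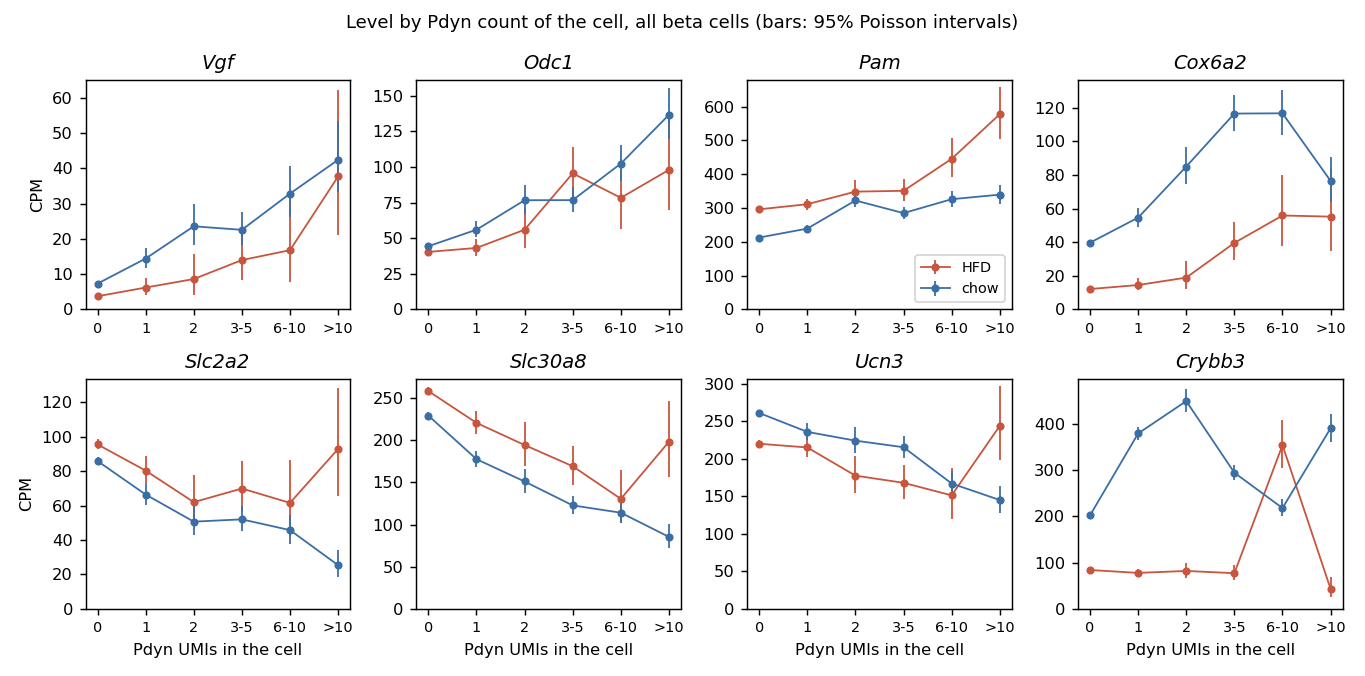
CPM (vertical axes, from 0) of 8 genes in all beta cells grouped by the Pdyn UMIs of the cell (horizontal axes), HFD in red and chow in blue, with 95% Poisson intervals. Vgf, Odc1 and Pam stand higher in the cells richest in Pdyn than in cells with 0 in both libraries, Slc2a2 and Slc30a8 fall from step to step in most of the chow range, and Crybb3 follows no order.

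Grouping all beta cells by their Pdyn count showed how these genes changed along the range, with no matching on depth. Median depth differed along it, with 16605 UMIs in HFD cells and 13991 in chow cells with 0 Pdyn UMIs, and 20394 and 23899 in those with over 10. In chow cells with 0, 1, 2, 3 to 5, 6 to 10 and over 10 Pdyn UMIs, Slc30a8 stood at 229, 178, 151, 123, 114 and 85.3 CPM. Slc2a2 stood at 85.9, 66.4, 50.6, 51.9, 45.7 and 25.3 CPM over the same steps. Both were therefore already lower in cells with 1 Pdyn UMI, which are not members. In HFD cells Slc30a8 stood at 259, 221, 194, 169, 131 and 198 CPM, and the last step rests on 18 cells. Vgf stood at 3.73, 6.19, 8.61, 14.0, 16.8 and 37.7 CPM in HFD cells, and at 7.31, 14.4, 23.6, 22.5, 32.8 and 42.4 CPM in chow cells. Cox6a2 did not keep the order at the top: in chow cells it stood at 117 CPM at 3 to 5 and at 6 to 10 Pdyn UMIs and at 76.5 CPM (63.9 to 90.9) over 10.

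Genes of the unfolded protein response stood mostly higher in members. In HFD cells 39 of 47 measured genes lay above the all-gene median and in chow cells 45 of 48, with list medians of 0.35 and 0.32. Their summed level was 6722 CPM in HFD members and 4592 CPM in HFD Pdyn-0 cells, and 9064 CPM in chow members and 7013 CPM in chow Pdyn-0 cells. The changes were small: 2 genes in the HFD library and 0 in the chow library reached 2-fold before the all-gene median was taken off. Hspa5, the chaperone BiP, had 0.51 in the HFD library and 0.42 in the chow library. Sdf2l1 had 0.92 and 0.56, and Ero1l, an oxidase of protein folding, had 0.75 and 0.85. Pdia6, a disulfide isomerase, had 1.08 (0.80 to 1.37) in the HFD library and 0.37 (0.27 to 0.48) in the chow library. Crebrf had -0.04 and -0.78, one of the few genes of the list below the median.

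Genes of the integrated stress response stood mostly higher as well. Above the median lay 13 of 16 measured genes in HFD cells and 21 of 22 in chow cells, with list medians of 0.36 and 0.49, and 4 and 5 genes reached 2-fold. Atf4 stood at 198 CPM in HFD members and 115 CPM in HFD Pdyn-0 cells, and at 181 CPM in chow members and 127 CPM in chow Pdyn-0 cells. Its ratios were 0.61 (0.39 to 0.84) and 0.46 (0.35 to 0.58). Of its known targets, Ddit3 (CHOP) had 0.93 in the HFD library and 0.75 in the chow library, Eif4ebp1 had 0.83 and 0.83, and Chac1 had 1.21 and 0.62. Nupr1, whose promoter element is printed above, had 1.38 and 0.66, and 5 cells held 42.6% of its HFD member counts. Slc7a11, the cystine transporter also shown above, had 53 counts in chow members and 18 in chow Pdyn-0 cells, a ratio of 1.48 (0.71 to 2.37). Ddit4 stood on the other side, with -0.29 in the HFD library and -0.58 in the chow library, and Ppp1r15a lay at -0.05 and 0.04.

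Mitochondrially encoded transcripts stood lower in members. All 12 measured genes lay below the median in each library, with list medians of -0.49 in HFD cells and -0.46 in chow cells. Their summed level was 27856 CPM in HFD members and 34099 CPM in HFD Pdyn-0 cells, and 21694 CPM in chow members and 27759 CPM in chow Pdyn-0 cells. The rule limited the mitochondrial share of every cell in the same way, at 10%. Nuclear genes of oxidative phosphorylation did not share this: 37 of 81 in HFD cells and 35 of 84 in chow cells lay above the median, with list medians of -0.03 in each. Cox6a2 was the highest gene of that list in both libraries, and Uqcrq had 0.48 in the HFD library and 0.52 in the chow library. Cytosolic ribosomal protein genes lay mostly above the median, 76 of 80 in HFD cells and 71 of 80 in chow cells, but with small list medians of 0.13 and 0.08.

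**Figure D5:**
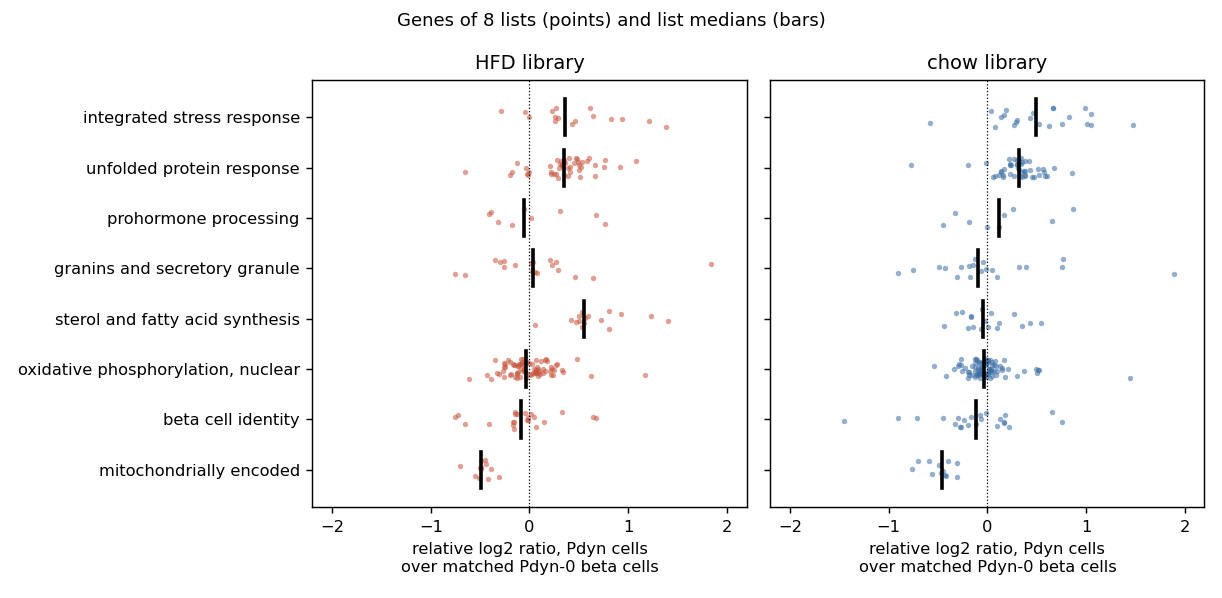
Relative log2 ratio of Pdyn cells over matched Pdyn-0 beta cells for the measured genes of 8 lists (points) with list medians (black bars), HFD library left and chow library right. The stress lists lie to the right of 0 and the mitochondrially encoded genes to the left in both libraries, while the sterol and fatty acid genes lie to the right in the HFD library and around 0 in the chow library.

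Genes of sterol and fatty acid synthesis stood higher in members of the HFD library but not in those of the chow library. All 16 measured genes of that list lay above the median in HFD cells and 8 of 18 in chow cells, with list medians of 0.55 and -0.04. Insig1, a regulator of this pathway, stood at 75.6 CPM in HFD members and 28.3 CPM in HFD Pdyn-0 cells, and at 34.8 CPM in chow members and 37.7 CPM in chow Pdyn-0 cells. Its ratios were 1.23 (0.81 to 1.68) in the HFD library and -0.17 (-0.40 to 0.07) in the chow library, and these intervals did not overlap. Hmgcs1, an early enzyme of cholesterol synthesis, had 1.41 and -0.15. Srebf2, the transcription factor of the pathway, had 0.56 and -0.32. The difference between libraries has no replicate behind it and was not tested.

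Transcripts of Ppy, Pyy, Gcg and Sst were counted in these barcodes, with median counts per cell close to those of matched Pdyn-0 cells. Free RNA gives such counts in cells that do not express a gene, and its part in them was not tested. The counts therefore do not show that members express these hormones. The median Ppy count per cell was 18 in HFD members and 18 in HFD Pdyn-0 cells, and 24 in chow members and 24 in chow Pdyn-0 cells. The summed Ppy level nevertheless differed, with 3851 CPM in HFD members and 5189 CPM in HFD Pdyn-0 cells, and 1590 CPM in chow members and 4951 CPM in chow Pdyn-0 cells. Cells with at least 1% of their UMIs from Ppy were 8 HFD members and 7 HFD Pdyn-0 cells, and 5 chow members and 14 chow Pdyn-0 cells. Those few cells set the sums: without them Ppy stood at 929 CPM in HFD members and 889 CPM in HFD Pdyn-0 cells, and at 1196 CPM in chow members and 1189 CPM in chow Pdyn-0 cells. Sst, without the cells rich in it, stood at 230 CPM in HFD members and 117 CPM in HFD Pdyn-0 cells, and at 170 and 158 CPM in the chow library. By the same measure Pyy stood at 570 and 434 CPM in the HFD library and at 676 and 620 CPM in the chow library. Gcg stood at 525 and 587 CPM in the HFD library and at 773 and 770 CPM in the chow library. Npy and Cartpt were likewise held by few cells, with 86.4% and 53.8% of the chow member counts in 5 cells. Spp1, a ductal marker on the list used here, had ratios of 2.74 in the HFD library and 1.58 in the chow library, with 56.1% and 40.0% of the member counts in 5 cells. Of the other measured ductal markers, Clu had 0.38 and 0.28, and Krt7 had -0.08 and -0.30. The 7 ductal markers summed to 261 CPM in HFD members and 177 CPM in HFD Pdyn-0 cells, and to 548 and 379 CPM in chow members and chow Pdyn-0 cells. The 8 endothelial markers summed to 16.6 CPM in HFD members and 81.9 CPM in HFD Pdyn-0 cells, where all Esm1 counts came from at most 5 cells, and to 13.6 CPM in chow members and 22.6 CPM in chow Pdyn-0 cells. The 9 acinar markers summed to 6.30 and 7.65 CPM in HFD members and HFD Pdyn-0 cells, and to 20.8 and 18.3 CPM in chow members and chow Pdyn-0 cells.

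Set against each other, members of the 2 libraries differed at 501 of 7933 genes by at least 2-fold (6.32%), 399 higher (5.03%) and 102 lower (1.29%) in HFD members. Matched Pdyn-0 cells of the same libraries differed at 429 of 7787 genes (5.51%), 219 higher (2.81%) and 210 lower (2.7%) in HFD cells, so the share of such genes was close in both kinds of cell. The direction depended on the scaling, with 205 higher and 180 lower per 1000000 UMIs without Ins1, Ins2 and Iapp, and 85 higher and 359 lower with TMM factors, and ratios are therefore given relative to the all-gene medians of 0.27 in members and 0.14 in Pdyn-0 cells. Over all 383 chow members, Mlxipl led the genes that the rule named between diets, at 129 CPM in HFD members and 41.5 CPM in chow members, a relative log2 ratio of 1.37, beside 0.87 in Pdyn-0 cells. Setd7 had 1.05 in members and 0.88 in Pdyn-0 cells, Cdkn1b had 1.04 and 1.12, and Cd200 had 1.03 and 0.95. Ret had 1.04 in members and 0.31 in Pdyn-0 cells, and Rims3 had 1.04 and 0.38.

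Genes lower in HFD members included heat shock and folding genes. Hspa1a, the inducible HSP70, had 10.3 CPM in HFD members and 69.2 CPM in chow members, a ratio of -2.98, beside -3.06 in Pdyn-0 cells. Dnajb1, its cochaperone, had -1.71 in members and -1.62 in Pdyn-0 cells, and Ppib had -1.74 and -1.36. Cd63, a tetraspanin of lysosomes and granules, had -1.75 and -2.03, and Ifi27 had -2.01 and -1.86. The genes of the unfolded protein response lay below the median in 40 of 48 cases, with a list median of -0.49, beside -0.53 in Pdyn-0 cells. The integrated stress response had a list median of -0.56 in members and -0.81 in Pdyn-0 cells. The markers took part: Fkbp11 had -2.25 in members and -2.24 in Pdyn-0 cells, Cox6a2 had -1.49 and -1.22, and Crybb3 had -1.34 and -3.03. Sterol and fatty acid synthesis had a list median of 0.40 in members, with 15 of 18 measured genes above the all-gene median, and of -0.33 in Pdyn-0 cells, with 4 of 18 above. Whether the ratios between libraries differ between cells with and without Pdyn was not tested. Diet, library and the handling of the cells cannot be told apart with 1 library per diet.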

How the data were processed

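The authors deposited raw UMI counts from 10x Genomics 3' v2 libraries, per the labels. The values are whole numbers and summed to 68544729 UMIs in the HFD library and 89292222 in the chow library (4017 to 59912 and 3846 to 54256 per barcode). The submitters' processing notes name Cell Ranger 2.1.0. The build, gene models and cell calling used were not given in the sources used here. Barcodes with under 500 genes or over 10% mitochondrial UMIs were left out (145 HFD, 122 chow). Cells were grouped by the rules in the text. Other cells were classed by the hormone (Sst, Gcg or Ppy) that held at least 5% of UMIs. Pairs were matched 1 to 1 on total UMIs within 10%, without replacement, so 1 chow member had no partner. Counts were summed over cells, ratios had 0.5 counts added to each sum, and genes with a summed count of at least 50 were measured. The 2-fold limit was applied before the all-gene median was taken off. With 1 library per diet no test was made. Proportions have exact Clopper-Pearson intervals, CPM exact Poisson intervals and ratios exact conditional intervals, all at 95%.

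Scrublet in scanpy 1.11.5 called 1 HFD and 3 chow barcodes as doublets by its automatic threshold and so had not worked. Doublets were therefore kept, and removal of the top 5% of scores (3.64% of HFD members, 4.70% of chow members) was an alternative. Analyses used Python 3.11.15, numpy 2.4.6, scipy 1.17.1, pandas 2.3.3, and edgeR 4.0.16 in R 4.3.3 for TMM factors only. The ratio script was tested on simulated Poisson sums. These hold no spread between cells, so the test does not cover that spread.

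The members and the gene lists were chosen with earlier results of these data known. Genes were named by a rule: the 15 highest and 10 lowest ratios of the chow library, the 5 highest and 5 lowest of the HFD library and the 8 highest and 8 lowest between diets, among genes with at least 20 CPM in 1 set, a summed count of at least 100 and at most 25% of counts in the 5 richest cells, plus the marker, opioid and hormone genes and the extremes of each list. Further genes of the lists named in the text (such as Ddit3, Eif4ebp1, Hspa5, Sdf2l1, Hmgcs1 and Pdx1) were chosen after their values were seen. Some genes the rule reaches are not reported here. Promoters are RefSeq windows on GRCm38.p6, matched by symbol.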

Additional observations from a re-analysis of the deposited data

How the results depend on the processing

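The ratio of the HFD share to the chow share of Pdyn cells stayed between 0.382 and 0.450 under the 6 alternatives run. The shares themselves were 1.67% (HFD) and 4.07% (chow) with cells thinned to 8000 UMIs, 0.742% and 1.65% at 4000 UMIs, 1.90% and 4.98% with at least 5 Pdyn UMIs, and the chow share was 9.86% with at most 5% mitochondrial UMIs. Thinning to 4000 UMIs and leaving out cells rich in Ppy, Pyy, Gcg or Sst were chosen after seeing the data. Counts of 2-fold genes followed the minimum sum: 21 in HFD cells, 34 in chow cells and 111 between diets with a minimum of 200, and 3331, 3004 and 3261 with none. Without matching on depth they were 583 (HFD) and 448 (chow), and HFD cells had 77 with TMM factors and 77 with a pseudocount of 5. Lists whose median lay at least 0.25 from the all-gene median numbered 5 of 23 in HFD cells (9 with at least 5 Pdyn UMIs) and 4 of 26 in chow cells (8 when matched on UMIs without Ins1, Ins2 and Iapp, and 8 unmatched). Besides the lists described above, these were minor peptides in HFD cells (-0.41, and 0.01 in chow cells) and beta cell heterogeneity genes in chow cells. The latter had -0.34 in chow cells, with 3 of 14 genes above the median, and -0.15 in HFD cells, with 4 of 11 above. The stress and mitochondrially encoded list medians kept their sign under all 11 alternatives. Among genes at least 2-fold apart and lists at least 0.25 from the median, the values that changed sign were Esm1 in HFD cells (1.06 when matched on UMIs without insulin and Iapp), the minor peptide list in HFD cells (0.14 unmatched) and, without hormone-rich cells, Ppy (-0.58), Pyy (-0.56) and Rbp4 (-0.53) between diets and Pyy in chow cells (0.094). Below these limits, 133 of the 592 gene and list ratios changed sign in at least 1 alternative. Of these Npy between diets had -0.94 and spanned -6.40 to 1.23, Rbp4 in HFD cells -0.26 and -1.45 to 0.92, Cib3 between diets 0.65 and -0.42 to 0.80, Arrdc4 between diets 0.38 and -0.46 to 0.52, and Pomc in HFD cells 0.62 and -0.02 to 0.83. Counted once per gene or list ratio and alternative, 5496 results moved by no more than their limits, 603 moved further, and 6 are the sign changes first named. Of the counts and shares, again once per alternative, 51 stayed within their limits and 20 moved further. Causes were not tested, apart from the genes lost or gained with the minimum sum. No pairing between diets was possible because each diet has 1 library. Within a library, the pairs of members and Pdyn-0 cells served to match depth and were then summed. Depth limits genes such as Ttyh1 and Phgdh in HFD cells, which had under 50 counts.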
